A study of Homo sapiens with 2 samples.

Results

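The hypoxia inducible factor (HIF) pathway lets a cell adjust transcription to its oxygen supply. The 10 genes described here were chosen by symbol, HIF1A, ARNT, EGLN1, EGLN3, VHL, CA9, ANGPTL4, VEGFA, P4HA1 and NDRG1, out of 28303 genes listed for 2 RNA sequencing libraries made from the established gastric cancer line HGC27, a human line. All 10 symbols matched 1 Ensembl gene identifier each. One library came from HGC27 cells transfected with pcDNA3.1-linc01133, a plasmid that carries the long non-coding RNA LINC01133, and the other from HGC27 cells transfected with pcDNA3.1-control. Both were harvested 48 h after transfection with Turbofect, and their polyadenylated RNA was sequenced. The labels name no low oxygen treatment in either group. Each group held 1 library of a single cell line, so no difference has a replicate check, and none was given a p-value.

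In the presence of oxygen, prolyl hydroxylases of the EGLN family modify the HIF alpha subunit, VHL recognises the modified protein, and the protein is degraded. When oxygen is short, HIF alpha accumulates, pairs with the constant partner ARNT and binds hypoxia response elements, short DNA sites with the core A/GCGTG, near genes for acid balance, vessel growth, collagen modification and metabolism. Most of this control acts on the HIF alpha protein, which RNA sequencing does not measure. In solid tumours, CA9 and VEGFA are widely used as readouts of the pathway.

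The libraries held 16302582 counted fragments with overexpression and 15666628 in the control. LINC01133 had 1.44 FPKM in the overexpression library and 0.0809 FPKM in the control, from 74 and 4 fragments. FPKM is the fragment count of a gene scaled to its exon length and to the depth of the library. The interval in brackets after a level is its exact 95% Poisson interval, and that after a ratio is the exact Clopper-Pearson one. These intervals cover counting error only. Of 8 epithelial markers 7 were listed and 0 reached a mean of 1 FPKM, with summed levels of 1.78 FPKM with overexpression and 2.06 FPKM in the control, and KRT18 was listed at 0 in both. Of 8 gastric markers 5 were listed and 0 reached that mean, and MUC5AC and TFF2 were listed at 0 in both. The defining markers of the labelled tissue were thus listed at or near 0, but so was the widely expressed MIF (0 fragments with overexpression and 2 in the control, named after its values were seen), so a value of 0 in these files need not mean low expression. All 8 fibroblast markers passed 1 FPKM, COL3A1 among them with 322 FPKM with overexpression and 325 FPKM in the control, and their levels summed to 667 FPKM with overexpression and 620 FPKM in the control. The part of these in the results below was not tested. As RNA was pooled over all cells of a culture, fewer cells of a type and less RNA per cell cannot be told apart.

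The 10 genes lay on both sides of an equal level. A call of higher or lower needed a log2 ratio of FPKM + 1, overexpression over control, of at least 1 or at most -1, which is 2-fold on that scale and understates differences of genes with low values. All 10 genes had a mean of at least 1 FPKM over the libraries. By this measure 1 of the 10 was higher with overexpression and 0 were lower, beside 11.9% higher and 0.444% lower among the 11945 genes past the same filter. Before the pseudocount, the ratio was above 1 for 5 genes and below 1 for 5. The counting interval of the ratio lay above 1 for 4 of them, HIF1A, EGLN1, VHL and P4HA1, and below 1 for 3, CA9, ANGPTL4 and NDRG1, while it held 1 for ARNT, EGLN3 and VEGFA. These calls hold for the deposited scaling: under each of the 3 other scalings the intervals of ARNT, EGLN3 and VEGFA also lay below 1, which made 6 below, and that of VHL held 1 under 2 of them, the upper quartile and the trimmed mean of M values. Among the 10940 genes with whole fragments in both libraries the interval lay above 1 for 42.6% and below 1 for 32.2%, so the shares as deposited are near those of genes at large. The median log2 ratio of the 10 genes was 0.0033, from -0.93 to 1.17, and that of all genes past the filter was 0.10.

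**Figure D1:**
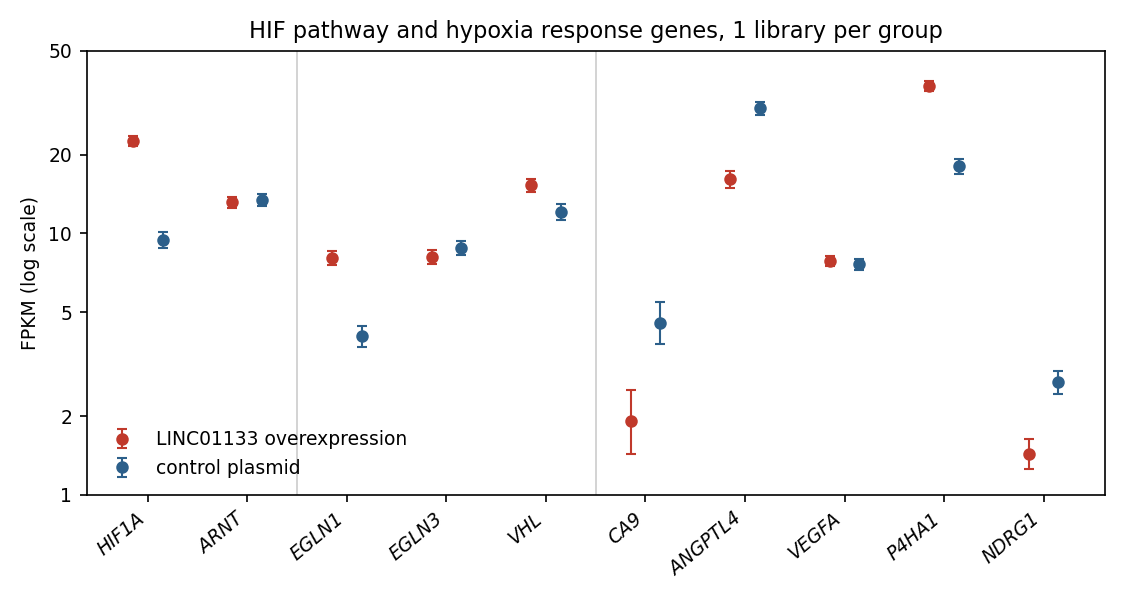
Level of each of the 10 genes in FPKM (log axis) in the LINC01133 overexpression library (red, left) and the control plasmid library (blue, right). Points are single libraries and bars are 95% counting intervals; grey lines part subunits, oxygen sensors and target genes. HIF1A, EGLN1 and P4HA1 stand higher and CA9, ANGPTL4 and NDRG1 lower with overexpression, while ARNT, EGLN3 and VEGFA have overlapping intervals.

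As deposited, the transcript of the oxygen regulated subunit was at least 2-fold higher and that of its partner was not. HIF1A, which encodes the HIF-1 alpha subunit, is ENSG00000100644 (chromosome 14, plus strand, 61695513 to 61748259; all positions are on GRCh38). It had 22.5 FPKM with overexpression (21.5 to 23.6, from 1893 fragments) and 9.47 FPKM in the control (8.81 to 10.2, from 764 fragments). This gave a ratio of 2.38 (2.19 to 2.59) and a log2 ratio of 1.17, the highest of the 10. The log2 ratio fell short of 2-fold under the 3 other scalings (0.99, 0.98 and 0.79) and was 0.13 with the GC content and length trends taken off. ARNT, which encodes the constitutive partner HIF-1 beta, is ENSG00000143437 (chromosome 1, minus strand, 150809705 to 150876768). It had 13.1 FPKM with overexpression (12.5 to 13.8) and 13.4 FPKM in the control (12.7 to 14.1), a ratio of 0.980 (0.909 to 1.06). The level of HIF1A was therefore 1.72 times that of ARNT with overexpression and 0.706 times that of ARNT in the control.

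The other HIF subunits had low levels. EPAS1, which encodes HIF-2 alpha, had 0.420 FPKM with overexpression and 0.481 FPKM in the control, from 50 and 55 fragments, a ratio of 0.874 (0.584 to 1.31). HIF3A, an alpha subunit with inhibitory isoforms, had 2 fragments with overexpression and 5 fragments in the control, near the 3 that a count of 0 allows. ARNT2, a paralogue of ARNT best known from nervous tissue, had 0.109 FPKM with overexpression and 0.122 FPKM in the control. Of the alpha subunits, HIF1A alone passed 1 FPKM in these libraries.

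Of the oxygen sensors, the counting interval of the ratio lay above 1 for EGLN1 and not for EGLN3. EGLN1 encodes PHD2, the main HIF prolyl hydroxylase under ordinary oxygen. It is ENSG00000135766 (chromosome 1, minus strand, 231363751 to 231425044). EGLN1 had 8.05 FPKM with overexpression (7.55 to 8.58, 954 fragments) and 4.05 FPKM in the control (3.69 to 4.44, 461 fragments). Its ratio was 1.99 (1.78 to 2.23) and its log2 ratio 0.84, short of the 2-fold limit. EGLN3 encodes PHD3, a hydroxylase whose gene is itself induced by HIF, and is ENSG00000129521 (chromosome 14, minus strand, 33924231 to 34462774). EGLN3 had 8.12 FPKM with overexpression (7.62 to 8.64) and 8.83 FPKM in the control (8.30 to 9.39), a ratio of 0.919 (0.841 to 1.005). The level of EGLN1 was 0.992 times that of EGLN3 with overexpression and 0.459 times in the control. Over 1 annotated transcript per gene, chosen as described below, it would be 0.393 times with overexpression and 0.182 times in the control. EGLN2, the remaining HIF prolyl hydroxylase, had 0.569 FPKM with overexpression and 0.534 FPKM in the control. Exons shared with other genes were looked up for the 10 genes alone, so this value of EGLN2 need not mean low expression. HIF1AN, the asparagine hydroxylase that blocks coactivator binding, had 9.64 FPKM with overexpression and 10.1 FPKM in the control, a ratio of 0.959 (0.904 to 1.02).

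VHL, the substrate receptor of the ubiquitin ligase that takes hydroxylated HIF alpha, is ENSG00000134086 (chromosome 3, plus strand, 10141008 to 10152220). It had 15.3 FPKM with overexpression (14.3 to 16.2, 1048 fragments) and 12.1 FPKM in the control (11.2 to 12.9, 796 fragments), a ratio of 1.27 (1.15 to 1.39) or 0.32 on the log2 scale. The partners of VHL in the ligase did not share a direction. The scaffold CUL2 had 11.3 FPKM with overexpression and 4.84 FPKM in the control, a ratio of 2.34 (2.07 to 2.64). The adaptor ELOB had 64.2 FPKM with overexpression and 109.9 FPKM in the control, a ratio of 0.584 (0.543 to 0.628). The other adaptor, ELOC, had a ratio of 1.22 (1.09 to 1.37) and the RING protein RBX1 a ratio of 0.762 (0.696 to 0.834). Of the 12 genes of the list of oxygen sensing hydroxylases and VHL ligase past the filter (EGLN1, EGLN3 and VHL included), 1 was at least 2-fold higher and 0 lower, which is 8.33% higher beside the 11.9% of all genes, 7 lay above and 5 below 0, and their median log2 ratio was 0.02. Of those not yet named, OS9 (log2 ratio 0.00), NEDD8 (0.04), SIAH1 (0.44) and SIAH2 (-0.11) lay under 2-fold. With the GC content and length trends taken off, 0 of the 12 were at least 2-fold higher or lower. Of the 12, 6 then lay above and 6 below 0, with a median of 0.07. CUL2 went from a log2 ratio of 1.08 to 0.32, and ELOB from -0.77 to -0.23. ELOC was then at 0.34, RBX1 at -0.76 and OS9 at 0.18. NEDD8 was at -0.42, SIAH1 at -0.49 and SIAH2 at 0.29.

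The RefSeq promoter table (GRCh38.p14, from 250 bases before to 50 bases after a start site) holds 8 windows for 7 of the 10 genes, 2 of them for HIF1A. The core ACGTG, searched on both strands, was in 4 of these 8 windows, and in 21.4% of all 35116 windows. The core GCGTG was in 1 of the 8, that of HIF1A, and in 36.5% of all windows. The genes with ACGTG include some that stood higher with overexpression (EGLN1, P4HA1) and some that stood lower (CA9, ANGPTL4). These 4 stretches are shown because the same letters accompany opposite ratios. They are written along the gene's own strand, with the core in capitals, or its reverse complement CACGT where the core is on the other strand.
EGLN1: gccgtggtgtACGTGcagagcgcgc
P4HA1: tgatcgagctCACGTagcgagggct
CA9: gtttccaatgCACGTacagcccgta
ANGPTL4: aaagaagagtCACGTctcccacggt
Along the gene's strand, the first capital letter lay 13 bases before the start site in EGLN1 and 18 before it in CA9. It lay 86 before it in P4HA1 and 234 before it in ANGPTL4. The start site is that of the RefSeq window and need not be the start of the gene span given in this text. The windows of EGLN1 and ANGPTL4 lie wholly inside those spans. A match is a description of the letters and not of binding.

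The whole windows of P4HA1 (chr10:73096817-73097116, minus strand) and CA9 (chr9:35673678-35673977, plus strand) are given because these target genes stood far apart in ratio. Both are written 5′ to 3′ along the gene with the core or its reverse complement in capitals. Their GC content was 70.3% for P4HA1 and 62.0% for CA9.
P4HA1: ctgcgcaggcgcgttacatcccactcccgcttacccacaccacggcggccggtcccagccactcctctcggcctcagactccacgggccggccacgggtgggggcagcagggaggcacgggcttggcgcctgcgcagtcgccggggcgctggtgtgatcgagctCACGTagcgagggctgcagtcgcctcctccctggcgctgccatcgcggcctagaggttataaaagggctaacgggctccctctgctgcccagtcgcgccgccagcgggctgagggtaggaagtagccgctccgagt
CA9: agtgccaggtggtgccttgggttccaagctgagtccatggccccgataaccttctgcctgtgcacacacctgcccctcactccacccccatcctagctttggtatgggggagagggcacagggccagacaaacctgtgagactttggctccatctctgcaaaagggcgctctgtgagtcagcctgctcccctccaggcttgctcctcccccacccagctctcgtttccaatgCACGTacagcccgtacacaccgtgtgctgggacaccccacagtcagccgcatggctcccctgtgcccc

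The target genes split. P4HA1 encodes the catalytic alpha subunit of collagen prolyl 4-hydroxylase, which stabilises the collagen triple helix, and is ENSG00000122884 (chromosome 10, minus strand, 73007217 to 73096974). It had 36.7 FPKM with overexpression (35.1 to 38.4, 1851 fragments) and 18.1 FPKM in the control (16.9 to 19.3, 875 fragments). Its ratio was 2.03 (1.87 to 2.21), and its log2 ratio of 0.98 lay just short of the limit. P4HA1 was the gene of the set with the highest level in the overexpression library, and it lay above 90.8% of the genes past the filter there, against 80.1% in the control.

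CA9 and ANGPTL4 lay at the other end. CA9, a carbonic anhydrase on the cell surface that helps to control the pH around hypoxic tumour cells, is ENSG00000107159 (chromosome 9, plus strand, 35673856 to 35681159). It had 1.91 FPKM with overexpression (1.43 to 2.505, only 52 fragments) and 4.55 FPKM in the control (3.77 to 5.44, 119 fragments), a ratio of 0.420 (0.297 to 0.586) with a log2 ratio of -0.93. On the opposite strand ARHGEF39 shares 38.5% of the exon bases of CA9, and the strand setting of the counting is not given in the sources used here, so the value of CA9 is uncertain. ARHGEF39 had 4.47 FPKM with overexpression and 5.03 FPKM in the control. ANGPTL4, a secreted inhibitor of lipoprotein lipase, is ENSG00000167772 (chromosome 19, plus strand, 8363289 to 8374373). ANGPTL4 had 16.1 FPKM with overexpression (14.9 to 17.4, 651 fragments) and 30.2 FPKM in the control (28.5 to 32.0, 1174 fragments). Its ratio was 0.533 (0.483 to 0.587) and its log2 ratio -0.87. It was the gene of the set with the highest level in the control and the third with overexpression.

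NDRG1, a stress responsive gene often used as a hypoxia marker, is ENSG00000104419 (chromosome 8, minus strand, 133237171 to 133302022). It had 1.43 FPKM with overexpression (1.25 to 1.63, 229 fragments) and 2.69 FPKM in the control (2.44 to 2.96, 414 fragments). Its ratio of FPKM was 0.532 (0.450 to 0.626), while the log2 ratio of FPKM + 1 was -0.60, since the gene is low. VEGFA, the growth factor that drives the sprouting of blood vessels, is ENSG00000112715 (chromosome 6, plus strand, 43770184 to 43786487). It had 7.83 FPKM with overexpression (7.47 to 8.19, 1841 fragments) and 7.62 FPKM in the control (7.27 to 7.99, 1723 fragments). The ratio of VEGFA was 1.03 (0.961 to 1.10) as deposited. It depends on the scaling and the trends: the log2 ratio of 0.03 was -0.15 by the trimmed mean of M values and 0.25 with both trends subtracted.

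With overexpression the order of levels was P4HA1, HIF1A, ANGPTL4, VHL, ARNT, EGLN3, EGLN1, VEGFA, CA9 and NDRG1. In the control it was ANGPTL4, P4HA1, ARNT, VHL, HIF1A, EGLN3, VEGFA, CA9, EGLN1 and NDRG1. The counting intervals of neighbours overlapped for ANGPTL4 and VHL, for EGLN3, EGLN1 and VEGFA, and for CA9 and NDRG1 with overexpression. In the control they overlapped for ARNT and VHL, for HIF1A and EGLN3, and for CA9 and EGLN1. Levels of different genes depend on the exon length used by the authors, which fits the merged exons of all annotated transcripts. EGLN3 has 7359 bases of merged exons but 2849 in the 1 transcript chosen for it. Over that transcript it would have 21.0 FPKM with overexpression and 22.8 FPKM in the control. The plain ratio of FPKM between libraries does not depend on the length used. The log2 ratio of FPKM + 1 does, since the added 1 weighs more where values are low.

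The order of the ratios followed the base composition of the transcripts closely. Spearman's rho between log2 ratio and GC content was -0.791 across 11913 genes, and over the 10 genes it was -0.891, as a description of points that share the same pair of libraries. HIF1A, P4HA1 and EGLN1 have the lowest GC contents of the set, 36.4%, 40.8% and 44.1%, and the highest log2 ratios. ANGPTL4 and CA9 have the highest, 63.3% and 60.1%, and the lowest log2 ratios. All genes past the filter were therefore set in 10 bins of equal size by GC content. In the bin of the most AT-rich transcripts, up to 38.5% GC, the median log2 ratio was 1.11, and HIF1A at 1.17 lay above 55.2% of the genes there. P4HA1 lay above 64.6% of its bin, whose median was 0.84, and EGLN1 above 89.6% of its own, whose median was 0.40. CA9 lay above 0.672% of its bin (median -0.37), ANGPTL4 above 1.34% (median -0.39) and NDRG1 above 4.70% (median -0.17). VEGFA, with a log2 ratio near 0, lay above 76.9% of its bin.

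**Figure D2:**
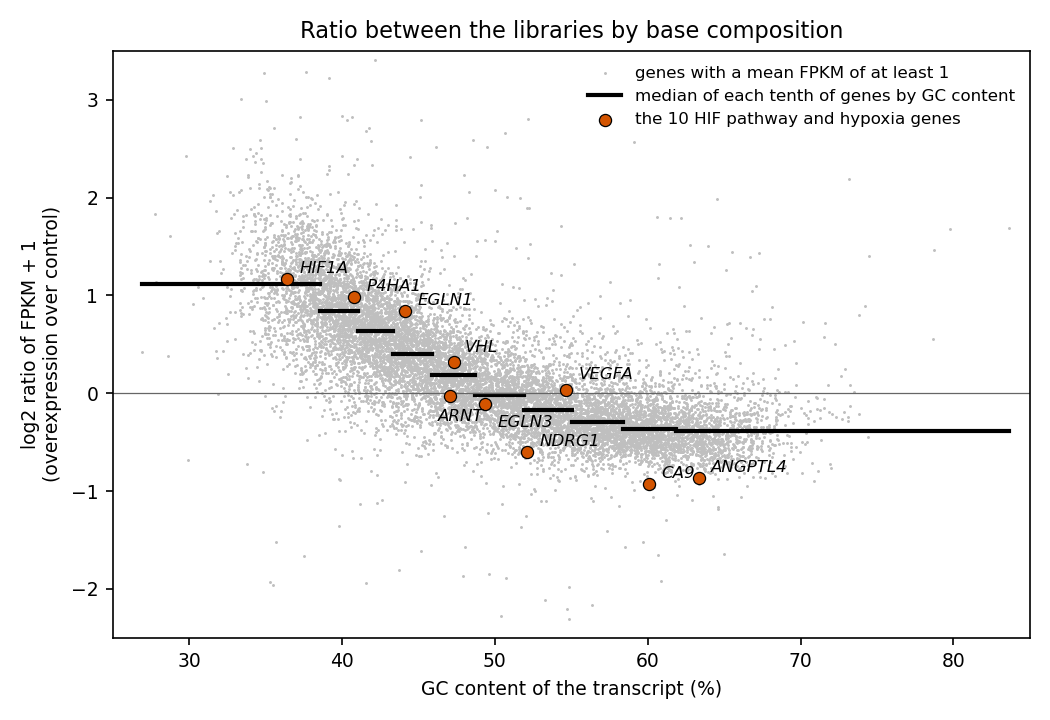
Log2 ratio of FPKM + 1 (overexpression over control) against transcript GC content (%) for genes with a mean of at least 1 FPKM (grey), with the median of each of 10 bins by GC content (black bars) and the 10 genes (orange); 5 genes lie outside the axes. HIF1A sits on the median of AT-rich transcripts, at 1.17 against 1.11, while CA9, ANGPTL4 and NDRG1 sit below the medians of theirs and EGLN1 above.

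When smooth trends of the log2 ratio on GC content and transcript length were subtracted over all genes, the spread of the set narrowed to between -0.42 and 0.43. None of the 10 then reached 2-fold, beside 1.71% of genes higher and 0.797% lower. HIF1A turned from the highest value to 0.13, and EGLN1 became the highest at 0.43. P4HA1 was at 0.35, VEGFA at 0.25 and VHL at 0.22. At the low end were NDRG1 at -0.42, CA9 at -0.41 and ANGPTL4 at -0.32, and ARNT and EGLN3 were at -0.17 and -0.04. Each of the 10 kept its sign, and the median of all genes was 0.08 after the subtraction. Over the 10 genes, Spearman's rho between the remaining values and GC content was -0.588, beside -0.891 before the subtraction. The part of base composition in the difference between the libraries was not tested.

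**Figure D3:**
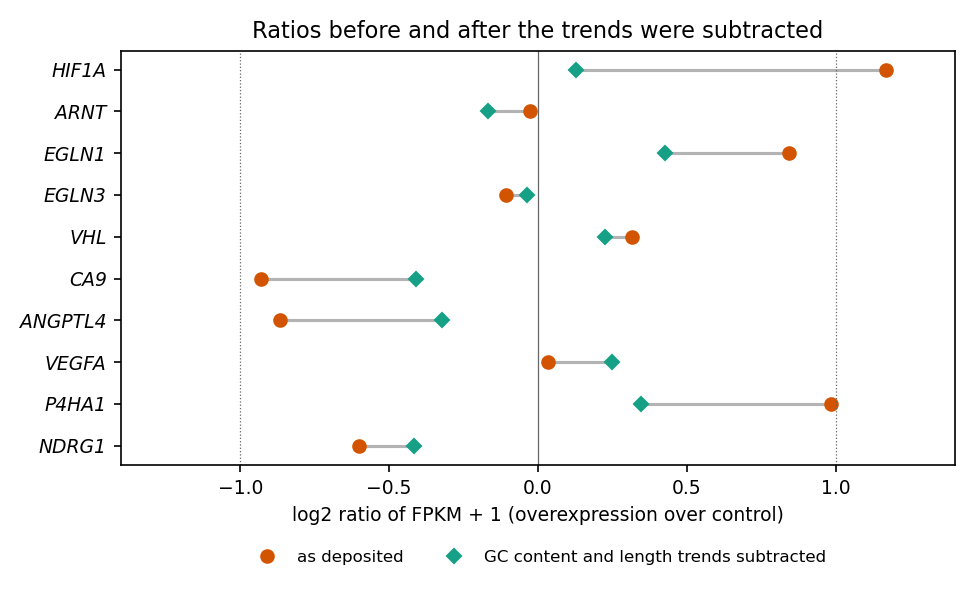
Log2 ratio of FPKM + 1 (overexpression over control) of each of the 10 genes as deposited (orange circles) and after the trends on GC content and length were removed (green diamonds); dotted lines mark 2-fold. HIF1A shows the longest shift, to 0.13, and CA9, ANGPTL4 and NDRG1 stay below 0.

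The wider pathway was followed in lists of HIF coactivators, targets and gene families, described by counts only. Of 18 coactivators and modulators with a mean of at least 1 FPKM, 2 were at least 2-fold higher and 0 lower, which is 11.1% higher beside the 11.9% of all genes, with 10 above and 8 below 0 and a median log2 ratio of 0.03. Among the higher was HSP90AA1, a chaperone that holds HIF alpha stable before it is hydroxylated. It had 442 FPKM with overexpression and 190 FPKM in the control (ratio 2.33, 2.29 to 2.37). Its log2 ratio was 1.22, or 0.97 with the trends subtracted. Its paralogue HSP90AB1, named after its values were seen, had 1195 FPKM with overexpression and 1166 FPKM in the control, a ratio of 1.02. The corepressor TRIM28 had a log2 ratio of -0.60 and the deubiquitinase USP20 of -0.53. With the trends subtracted TRIM28 was at -0.10 and USP20 at -0.11. The coactivators EP300 and CREBBP had log2 ratios of 0.04 and -0.03, and CITED2, an inhibitor that competes for them, of 0.03; these 3 genes were chosen after their values were seen.

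As deposited, HIF target genes outside glycolysis were mixed as well. Of 39 measured, 4 reached 2-fold higher and 0 reached 2-fold lower, which is 10.3% higher beside the 11.9% of all genes, 18 lay above and 21 below 0, and the median log2 ratio was -0.09. The 4 were the collagen lysyl hydroxylase PLOD2, at 9.19 FPKM with overexpression and 2.49 FPKM in the control, the disulphide oxidase ERO1A, the collagen crosslinking enzyme LOX and the transferrin receptor TFRC. ERO1A had 10.5 FPKM with overexpression and 3.501 FPKM in the control, LOX had 22.2 FPKM with overexpression and 9.63 FPKM in the control, and TFRC had 32.95 FPKM with overexpression and 14.9 FPKM in the control. Their ratios were 3.69 for PLOD2, 3.001 for ERO1A, 2.31 for LOX and 2.21 for TFRC. All 4 have AT-rich transcripts, from 34.4% GC in PLOD2 to 41.5% in TFRC, and with the trends subtracted their log2 ratios of 1.55, 1.35, 1.13 and 1.09 were 0.36, 0.46, 0.32 and 0.46. CA9 and ANGPTL4 had the lowest log2 ratios of the list as deposited. With the trends subtracted, 14 of the 39 lay above and 25 below 0, with a median of -0.07 beside 0.08 for all genes.

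HIF target genes of glycolysis lay on the low side in these libraries. Of 20 measured, 0 reached 2-fold in either direction, beside 11.9% higher and 0.444% lower of all genes. A log2 ratio below 0 was found for 16, and the median was -0.46 beside 0.10 for all genes. The share of all genes below 0 was not counted. As their median was above 0, more of them lay above 0 than below, and their lower quartile was -0.28. The median GC content of the 20 was 53.7%. The bin of all genes from 51.9% to 55.0% GC had a median log2 ratio of -0.17, so more genes of that bin lay below 0 than above. With the trends subtracted 18 of the 20 lay below 0, with a median of -0.16. The median of all genes was then 0.08, and their share below 0 was not counted either. ALDOA, an aldolase, had 256 FPKM with overexpression and 445 FPKM in the control, and its paralogue ALDOC had 18.6 FPKM with overexpression and 31.4 FPKM in the control. PDK1, a kinase that inhibits pyruvate dehydrogenase, had the highest log2 ratio of the list, 0.60. It had 1.67 FPKM with overexpression and 0.763 FPKM in the control, and its log2 ratio turned to -0.25 with the trends subtracted. PDK3 followed at 0.19 and turned to -0.25.

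**Figure D4:**
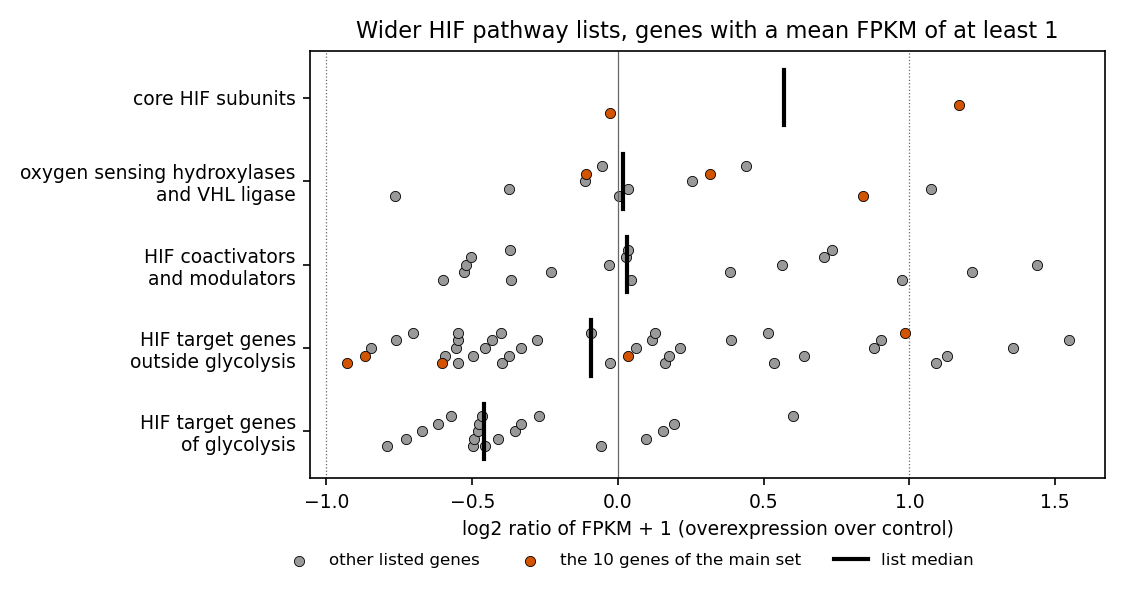
Log2 ratio of FPKM + 1 (overexpression over control) for genes with a mean of at least 1 FPKM in 5 lists of the HIF pathway; orange points belong to the 10 genes, grey points are other listed genes, black bars are list medians and dotted lines mark 2-fold. The glycolysis targets lie mostly left of 0, with a median of -0.46, while the other targets spread on both sides.

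The relatives of the 10 genes lay on both sides as well. Of 9 collagen prolyl and lysyl hydroxylases measured, 1 (PLOD2) was at least 2-fold higher and 0 lower. This is 11.1% higher, beside 11.9% higher and 0.444% lower of all genes. Of the 9, 7 lay below 0, among them P3H3 (log2 ratio -0.56) and PLOD1 (-0.55). P4HA1 and PLOD2 alone lay above 0 there, and the median was -0.53. With the trends subtracted, 3 lay above and 6 below 0, and the median was -0.08. P3H3 was then at -0.09 and PLOD1 at -0.12. Of 6 carbonic anhydrases past the filter, CA9 was the lowest and CA13 the highest (log2 ratio 0.68, or 0.01 with the trends subtracted). CA12, another HIF target, was at 0.21 and CA11 at -0.46. With the trends subtracted CA12 was at 0.25 and CA11 at 0.04. Among 4 measured VEGF ligands and receptors, VEGFB had 32.9 FPKM with overexpression and 51.3 FPKM in the control (log2 ratio -0.63, or -0.06 with the trends subtracted), and the coreceptors NRP1 and NRP2 were at 0.04 and -0.13. ANGPTL2 had a log2 ratio of -0.27. NDRG2 and NDRG3 had log2 ratios of -0.29 and -0.32, and with the trends subtracted NDRG2 was at 0.07 and NDRG3 at -0.46. Scaled instead by the trimmed mean of M values, a shift of 0.21 in every log2 ratio of FPKM, HIF1A lay at 0.98 and was no longer 2-fold higher, while CA9 at -1.08 and ANGPTL4 at -1.06 became at least 2-fold lower.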

How the data were processed

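Polyadenylated RNA of 2 HGC27 libraries was sequenced. For each gene and library the authors deposited a single value, whose unit the labels do not name. The deposited values were read as FPKM, scaled by the authors to exon length and library depth, because value times merged exon length (GENCODE 29) comes to whole fragments, within 0.02, for 94.3% of 28109 genes with overexpression and 94.5% in the control. The step gave the depth and the fragments per gene, and all 10 genes were whole in both libraries. HISAT2 2.1.0, HTSeq 0.6.0, Bowtie2 2.2.3 and GRCh38 are named per the submitters' processing notes; their roles, the annotation and the strand setting are not given in the sources used here.

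No test across libraries was possible with 1 library per group. Log2 ratios are of FPKM + 1, counted past 2-fold among genes with a mean of at least 1 FPKM. Trends on GC content and log2 length of 1 transcript per gene were fitted by lowess (span 0.3, statsmodels 0.14.6) and subtracted, which gave a value for 99.7% of those genes. The rule asked for the longest coding transcript with a marked 3′ UTR, or else the longest of any type. Whether any transcript carried that mark was not checked, so the one used may be the longest of any type for every gene. Whether it was coding was not checked either, and that of VEGFA has 12167 bases. Steps were tested on simulated data. The trimmed mean of M values was computed directly. The 10 genes and all lists were chosen with earlier results of these data known. Named genes were the 10, LINC01133, all HIF subunits and oxygen sensing genes, and of each list those past 2-fold and the 2 highest and 2 lowest; 1 gene that meets this rule is not reported here.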

Additional observations from a re-analysis of the deposited data

How the results depend on the processing

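No paired analysis was possible because the groups hold a single library each, and no library could be left out. Scaling by the median of ratios, the trimmed mean of M values and the upper quartile shifted all log2 ratios of FPKM by 0.19, 0.21 and 0.40. In that order the genes at least 2-fold higher, 1421 as reported, became 1008, 986 and 678 and the 53 lower became 99, 111 and 447. The 1 of the 10 genes higher became 0 each time, the 0 lower became 2 each time, and the median of the 10, 0.0033, became -0.17, -0.18 and -0.36. With a pseudocount of 0.1 FPKM there were 2244 genes higher and 127 lower, of the 10 genes 2 higher and 1 lower. With a prior of 10 fragments 30 were lower, of the 10 genes 2 higher and 1 lower. With both trends subtracted there were 204 higher and 95 lower, and with the GC content trend alone 231 and 83; of the 10 genes 0 were higher either time. At 1.5-fold there were 3199 higher and 632 lower, of the 10 genes 3 higher and 3 lower, and at 4-fold 92 and 8, of the 10 genes 0 higher. With no filter 109 were lower, at a mean of at least 5 FPKM 656 were higher and 10 lower, and among protein-coding genes 5 were lower.

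Chosen after the data were seen were a GC content trend by the median over coding transcripts, with 283 higher and 84 lower and 0 of the 10 genes higher, and no pseudocount, with 2349 and 146, of the 10 genes 2 higher and 1 lower, and the counting intervals under the 3 scalings, above 1 for 4, 3 and 3 of the 10 genes and below 1 for 6 each time. Over the 9 alternatives the log2 ratio ranged from 0.10 to 1.25 for HIF1A, 0.40 to 0.99 for EGLN1, 0.22 to 1.02 for P4HA1, -1.25 to -0.41 for CA9, -1.25 to -0.32 for ANGPTL4 and -0.91 to -0.22 for NDRG1. VEGFA turned below 0 under all 3 scalings (-0.14, -0.15 and -0.32) and VHL under the upper quartile (-0.06); the other 8 kept their sign. Where a value moved by scaling or trend, the cause was not tested. Depth limits CA9 most, with 52 fragments in the overexpression library.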
